A study of Mus musculus with 2 samples.

Results

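The respiratory chain genes described here are 116 protein-coding genes among the 49585 gene identifiers that were counted. They were chosen by symbol alone: symbols starting with mt-, Nduf, Uqcr, Atp5, or Cox followed by a digit, together with Sdha, Sdhb, Sdhc, Sdhd and Cycs. The mitochondrial genome encodes 13 of them and nuclear chromosomes encode 103, of which 85 are subunits of complexes I to V or cytochrome c and 18 are assembly factors or regulators.

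The respiratory chain sits in the inner mitochondrial membrane. Complex I takes electrons from NADH and complex II takes them from succinate, both pass them to ubiquinone, complex III hands them to cytochrome c, and complex IV hands them to oxygen. The proton gradient that complexes I, III and IV build is used by complex V, the ATP synthase, to make ATP. Hydrophobic core subunits are transcribed inside the mitochondrion as long precursor RNAs that span several genes, and all other subunits are transcribed in the nucleus and imported as proteins. In macrophages the use of the chain is known to change with the state of activation.

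RNA was sequenced from CD11b+ cells, a mixed population of myeloid cells with monocytes, macrophages and granulocytes, taken with magnetic beads from subcutaneous tumours of mouse pancreatic cancer cell lines. Both groups were NRP2f/fCSF1R-iCRE mice on a BL6 background, in which Nrp2 is floxed and an inducible Cre is driven by the Csf1r promoter of the monocyte and macrophage lineage. The test group was injected with tamoxifen every day from the time tumours could be felt, and its library is called the knockout library. The labels name no tamoxifen for the control group, so the drug and the deletion cannot be told apart. Tumours were taken at 15 days, and RNA of 3 animals was pooled into 1 library per group, so replicates are lacking and p-values were not computed. The comparison bears on how transcript levels of the chain in tumour CD11b+ cells differ when Nrp2 is deleted from myeloid cells.

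The control library held 64153676 counts and the knockout library 68554172. Nrp2, the targeted gene, had 9686 counts in the control and 1017 in the knockout library, 9.71-fold lower (95% counting interval 7.004 to 14.003). All 8 myeloid identity genes, Itgam, Csf1r, Adgre1, Ptprc, Cd68, Lyz2, Tyrobp and Fcer1g, were read in both libraries. Their summed level was 19464 CPM (counts scaled to library size) in the control and 22073 CPM in the knockout library, a sum carried by Lyz2 (849083 and 1063408 counts), and 5 of the 8 genes had lower values in the knockout library. Levels of other cell types' markers also differed between the libraries: the summed T cell list was at 165 and 55.4 CPM, the endothelial list at 76.7 and 21.05, the neutrophil list at 662 and 971, and the adipocyte list at 12.7 and 97.7. The neutrophil sum was carried by S100a8 (11295 and 22153 counts) and S100a9 (19477 and 30088), while Csf3r (11063 and 11123) and Cxcr2 (1604 and 1612) differed by less than counting error. Sums were also lower in the knockout library for the fibroblast list (321 and 193 CPM) and the epithelial tumour cell list (185 and 121). The cell cycle list summed to 138 and 82.9 CPM. Ratios above 1 were found for 2 of 6 fibroblast, 0 of 5 epithelial and 1 of 5 cell cycle genes. In bulk RNA, fewer cells of a type and less RNA per cell cannot be told apart, and the part of these shifts in the values below was not tested.

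Each difference below is a log2 ratio, knockout over control, of normalised counts. Among genes seen in 1 library only, the median count was 47 reads (control) or 24 reads (knockout), so a captured fragment was taken as worth that many reads. The 95% interval beside a ratio is the exact interval on counts divided by those values. It covers counting error only, and leaves out how animals differ. With a count of 0, up to 3 fragments remain possible, which is 141 reads in the control and 72 in the knockout library.

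Transcripts of the respiratory chain were, for most genes, slightly less abundant in the knockout library. Of 112 members with at least 50 counts over both libraries, 82 had a log2 ratio below 0, where 50.6% of all 14420 genes with that many counts did. The median over the members was -0.23, beside -0.01 over all genes. Of the other members, mt-Nd4l had fewer counts, and Cox7b2, Cox8b and Cox8c were at 0 in both libraries.

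Large differences were rare among them. One member, Cox6a2, was at least 2-fold higher, beside 10.8% of all genes, and that value rests on the prior count, since the gene had 0 counts in the control and 88 in the knockout library. There were 4 members at least 2-fold lower, beside 14.7% of all genes: Cox4i2, Cox6b2, Ndufa4l2 and the assembly factor Ndufaf6. The counting interval lay wholly below 1 for 30 members, beside 11.2% of all genes, and wholly above 1 for 3, mt-Co1, Ndufs1 and Uqcrc2, beside 12.5%. Of the 98 members with at least 1000 counts, 0 passed 2-fold upwards, beside 4.5% of all genes with that many counts, and 0 passed it downwards, beside 4.02%. The intervals of 29 of these 98 lay wholly below 1, beside 15.2% of all genes with that many counts, and those of 3 wholly above 1, beside 18.7%. On reads as deposited, without division by the reads per fragment, the intervals of 78 of the 112 members lay below 1 and those of 25 above 1. With the trend of GC content and length removed, 17 lay below 1 and 8 above 1. With upper-quartile factors or library totals alone, 38 lay below 1 and 2 above 1, and Ndufs1 was no longer among those above.

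The medians of the nuclear and the mitochondrial genes were both below 0. Over the 82 nuclear subunits and cytochrome c with enough counts the median log2 ratio was -0.21 (95% interval of the median, over genes, -0.27 to -0.14), and 62 were below 0. The 12 mitochondrial genes had a median of -0.25 (-0.47 to 0.28), with 9 below 0, and the difference between the medians was -0.04. That difference was -0.22 among genes with at least 1000 counts and -0.20 with the GC and length trend removed. Summed levels moved apart: the nuclear subunits together were at 9448 CPM in the control and 8452 CPM in the knockout library, and the mitochondrial genes at 16938 and 17045 CPM.

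**Figure D1:**
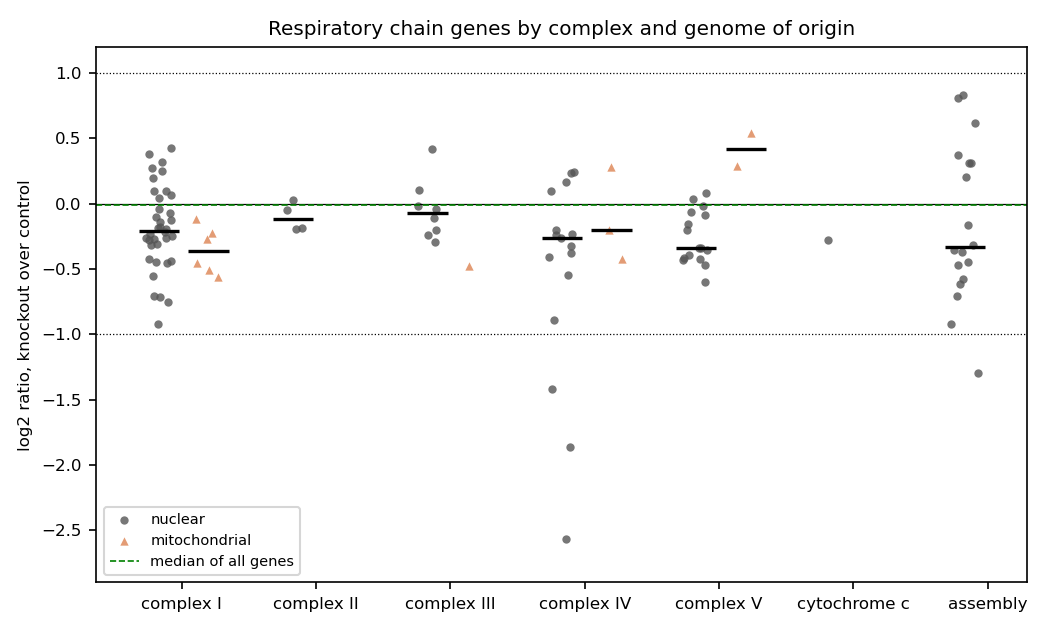
Log2 ratio (knockout over control, vertical axis) of each respiratory chain gene with at least 50 counts, by complex, with nuclear genes as grey circles and mitochondrial genes as orange triangles. Black bars are group medians, dotted lines mark 2-fold, the dashed line is the median of all genes, and Cox6a2 (7.44, 0 counts in the control library) lies off the axis. Most points lie between 0 and -0.5, and the points beyond 2-fold are 3 isoforms of complex IV and Ndufaf6.

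The mitochondrial genes took 1.73% of all counts in the control library (95% Wilson interval on fragments 1.71% to 1.76%) and 1.67% in the knockout library (1.65% to 1.68%). This near equality came from opposite differences. mt-Co1, which encodes the catalytic subunit of complex IV (GRCm38 mitochondrial genome, 5328 to 6872, plus strand), had 555022 counts in the control and 689464 in the knockout library, a log2 ratio of 0.28 (ratio 1.22, interval 1.19 to 1.24). That log2 ratio was 0.23 with upper-quartile factors and 0.22 with library totals alone, both below the counting interval, which leaves out the choice of scaling. mt-Co1 made up 49.9% of the mitochondrial counts in the control and 60.4% in the knockout library. The other 12 genes together took 0.868% of all counts in the control and 0.660% in the knockout library. So mt-Co1 was the only well-counted gene that was higher, and the other 12 as a group were lower. Among those 12, mt-Atp6 (log2 ratio 0.55) and mt-Atp8 (0.29) were also above 0, on few counts and with intervals that include 1.

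The well-counted genes of complexes I and III encoded in mitochondria were all lower in the knockout library. mt-Cytb, cytochrome b of complex III (14145 to 15288), had 185789 and 136498 counts in control and knockout, a log2 ratio of -0.47 (ratio 0.720, interval 0.691 to 0.750). mt-Nd2, a membrane subunit of complex I, had 54834 and 39402 counts and a log2 ratio of -0.51 (interval of the ratio 0.653 to 0.760). mt-Nd4, a proton-pumping subunit, had 82526 and 61518 counts and a log2 ratio of -0.45 (0.687 to 0.777). These 3 genes were lower by a similar amount, and a pair of other complex I genes differed less. mt-Nd5, another pumping subunit, had 67777 and 59173 counts and a log2 ratio of -0.22 (0.802 to 0.914). mt-Nd1, the subunit at the ubiquinone site (2751 to 3707), had 162759 and 152863 counts and a log2 ratio of -0.12 (0.883 to 0.960). With library totals alone the log2 ratios of mt-Cytb and mt-Nd1 were -0.54 and -0.19, both below their counting intervals. mt-Nd6, the only one of the 13 on the other strand (13552 to 14070), had 972 and 671 counts and a log2 ratio of -0.56, with an interval of 0.366 to 1.24 that includes 1.

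The remaining mitochondrial genes had few counts in both libraries. mt-Co2, the subunit of complex IV that takes electrons from cytochrome c, had 1394 and 1062 counts, mt-Co3, another core subunit of complex IV, had 597 and 529, and mt-Atp6, the proton channel subunit of complex V, had 329 and 490. mt-Atp8, mt-Nd3 and mt-Nd4l, small subunits of complexes V and I, had 36 and 45, 32 and 27, and 16 and 15 counts. The intervals of these ratios all include 1, and the last 3 genes lie under the floor in both libraries. Per kilobase of transcript the levels spanned from 5472 CPM for mt-Co1 to 0.825 CPM for mt-Nd4l in the control library.

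Of the genes with few counts, mt-Co2, mt-Co3, mt-Atp6, mt-Nd3 and mt-Nd4l have near-identical copies in the nuclear genome, and mt-Atp8 and mt-Nd6 share none of their words with other genes. Of the 50-base words of mt-Co2, 100% also occur in transcripts of another gene, and the share was 99.9% for mt-Co3, 99.5% for mt-Atp6, 98.8% for mt-Nd4l and 98.0% for mt-Nd3. It was 62.2% for mt-Nd4, 51.1% for mt-Co1, 8.19% for mt-Nd2, 7.61% for mt-Nd5 and 0% for mt-Nd1, mt-Cytb, mt-Nd6 and mt-Atp8. Annotated copies of 7 of the genes stand in a row on the minus strand of chromosome 1 (GRCm38, 24611535 to 24616197). The copies of mt-Co2 (Gm28661), mt-Atp6 (Gm10925), mt-Co3 (Gm28437) and mt-Nd4l (Gm10222) have 0 mismatches over the aligned length, and that of mt-Nd3 (Gm28438) has 1 over 345 bases. mt-Atp8 lies between mt-Co2 and mt-Atp6 on the mitochondrial genome and also had few counts. The copies were themselves counted: Gm10925 had 570 and 548 counts and Gm28661 had 481 and 467 in control and knockout.

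A pair of stretches shows what a read could and could not tell apart. The first 90 bases of the mt-Atp6 and Gm10925 transcripts (GENCODE release M21, GRCm38, 5′ to 3′) are the same letter for letter, and a read that lies wholly within them fits both genes equally well.
mt-Atp6: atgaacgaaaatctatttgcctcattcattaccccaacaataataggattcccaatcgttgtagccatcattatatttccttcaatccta
Gm10925: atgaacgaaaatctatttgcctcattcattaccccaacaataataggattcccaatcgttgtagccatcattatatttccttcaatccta
For mt-Co1 the copy along its whole length, Gm13340 on the minus strand of chromosome 2 (22588103 to 22589647), is 97.6% identical, with 37 mismatches in 1545 bases. Bases 445 to 534 of both transcripts are shown with the 5 positions at which they differ in capitals.
mt-Co1: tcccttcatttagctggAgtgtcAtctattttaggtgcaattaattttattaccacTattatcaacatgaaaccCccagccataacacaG
Gm13340: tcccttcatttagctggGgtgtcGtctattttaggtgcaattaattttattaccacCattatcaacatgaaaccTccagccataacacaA
This stretch was picked as the 90 bases with the most mismatches, so it is not typical of the gene. A read of 50 bases from it covers at least 1 such letter, but 51.1% of all 50-base words of mt-Co1 also occur in other transcripts. A shorter copy of mt-Co1, Gm29216 on chromosome 1, is 98.8% identical over 492 bases and had 1021 and 836 counts. Gm13340 had 493 and 525 counts, beside the 555022 and 689464 of mt-Co1. How the authors' counting treated reads that fit several places is not stated in the sources used here, so the low counts of mt-Co2, mt-Co3, mt-Atp6, mt-Nd3 and mt-Nd4l cannot be read as levels of those RNAs. Without the 5 genes that share over 90% of their words, the mitochondrial median was -0.34 and its difference from the nuclear subunits -0.13.

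**Figure D2:**
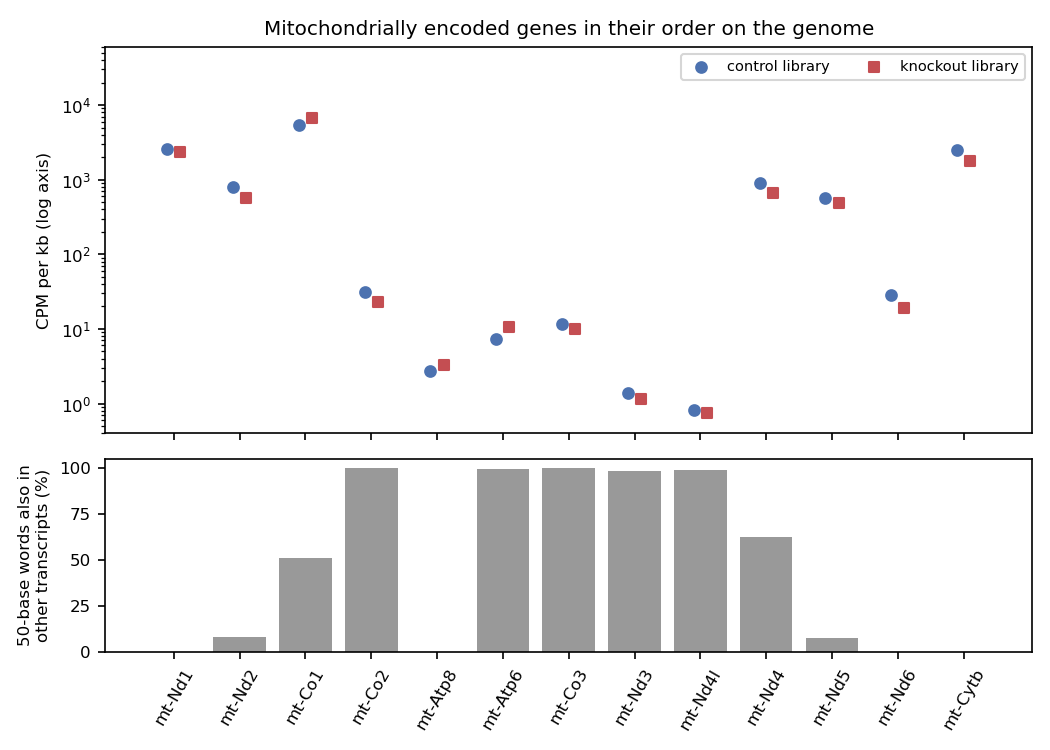
The upper panel gives the level (CPM per kilobase, log axis) of the 13 mitochondrial genes in the control (blue circles) and knockout (red squares) libraries, in their order on the genome, and the lower panel gives the percentage of each gene's 50-base words that also occur in other genes' transcripts. mt-Co1 is the one well-counted gene with a higher value in the knockout library, and the 5 genes whose bars are near 100% lie low in the upper panel, as do mt-Atp8 and mt-Nd6, whose bars are at 0.

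In complex I the core and the accessory nuclear subunits had medians on opposite sides of 0. The 7 nuclear core subunits, which carry the flavin and the iron-sulphur clusters, had a median log2 ratio of 0.25 (range -0.26 to 0.43), and 5 of 7 were above 0. The 29 accessory subunits, which surround the core, had a median of -0.25 (over genes, -0.42 to -0.14), with 24 of 29 below 0 and 7 intervals wholly below 1. Of all genes with at least 1000 counts, as these have, 46.7% were below 0 and 15.2% had an interval wholly below 1. The core genes have longer transcripts, with a median of 1312 bases beside 704 bases for the accessory genes. With the trend of GC content and transcript length removed the medians were 0.37 and -0.091.

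Ndufs1, the largest iron-sulphur subunit (chromosome 1, 63143596 to 63176833, minus strand), had 3333 counts in the control and 4566 in the knockout library, a log2 ratio of 0.43 (ratio 1.34, interval 1.01 to 1.78). Ndufs3, next to the iron-sulphur chain, had 3119 and 4152 counts and a log2 ratio of 0.38 (interval 0.983 to 1.77). Ndufs7, which holds the last cluster before ubiquinone, had 2462 and 3135 counts and a log2 ratio of 0.32 (0.908 to 1.77). These 3 genes had higher counts in the knockout library, and the intervals of Ndufs3 and Ndufs7 include 1. Of the words of Ndufs3, 35.8% also occur in other genes' transcripts. Ndufv1, the flavin subunit that binds NADH, had 4313 and 5248 counts and a log2 ratio of 0.25 (0.930 to 1.54). Ndufv2, another subunit of the NADH-binding part, had 6636 and 6443 counts (-0.07), and Ndufs8, an iron-sulphur subunit, had 5320 and 4528 (-0.26). The intervals of Ndufv1, Ndufv2 and Ndufs8 include 1 as well. The lower bound of Ndufs1 is close to 1, and its interval includes 1 with upper-quartile factors, with library totals alone or with the GC and length trend removed.

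The accessory subunits with the lowest ratios were Ndufb2, Ndufa3, Ndufs5 and Ndufab1. Ndufb2 (chromosome 6, 39592574 to 39603382, plus strand) had 1708 and 920 counts in control and knockout, 1.89-fold lower (interval 1.17 to 3.07). Ndufa3 (chromosome 7, 3617373 to 3620327, plus strand) had 5040 and 3054 counts, 1.68-fold lower (1.29 to 2.19). Both belong to the membrane arm. Ndufs5 had 2089 and 1301 counts, 1.64-fold lower (1.07 to 2.47), and Ndufab1, the mitochondrial acyl carrier protein, had 2829 and 1767 counts, 1.63-fold lower (1.13 to 2.31). Ndufs6, Ndufb10 and Ndufc2 had log2 ratios of -0.56, -0.46 and -0.44, and their intervals too lay wholly below 1. The highest accessory ratios were those of Ndufb6 (2194 and 2711 counts, 0.28) and Ndufb8 (4494 and 5252 counts, 0.20), whose intervals include 1.

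**Figure D3:**
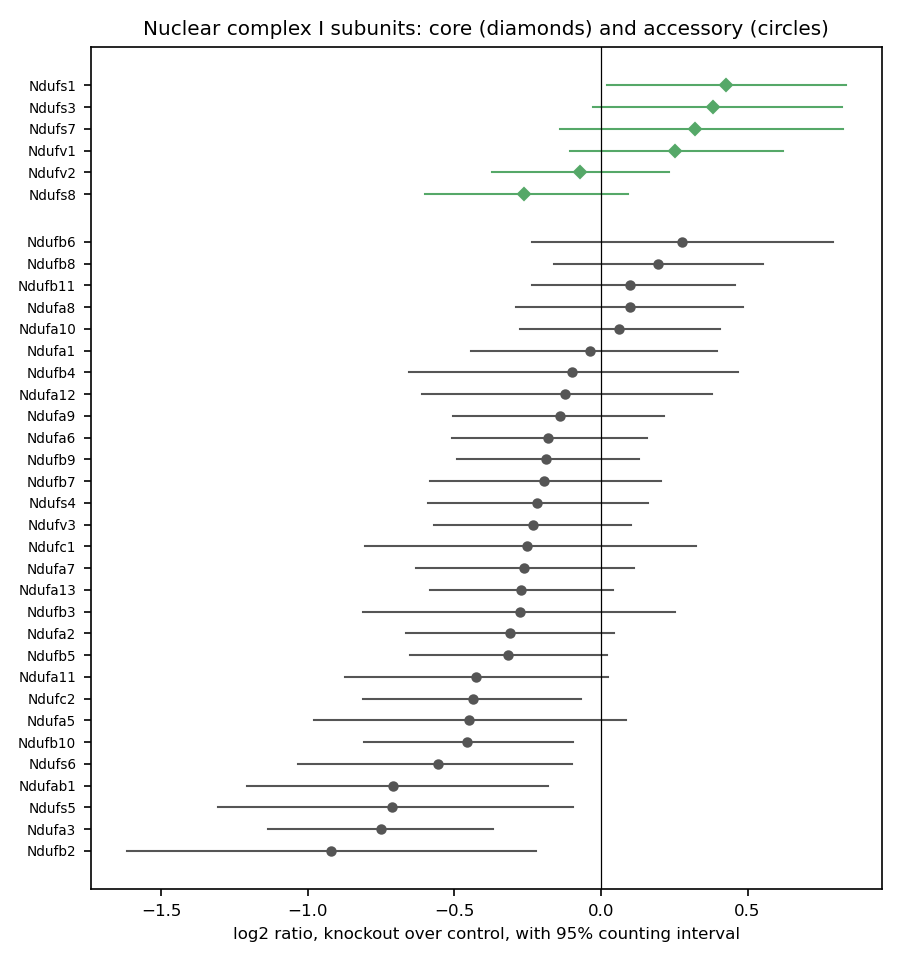
Log2 ratio (knockout over control, horizontal axis) of the nuclear complex I subunits reported here with the 95% counting interval as a line, core subunits as green diamonds at the top and accessory subunits as grey circles below. Most core points are right of 0, 24 of the 29 accessory points are left of 0, and most intervals cross 0.

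Complex II, succinate dehydrogenase, is encoded wholly in the nucleus and also belongs to the citric acid cycle. Sdha, the flavoprotein, had 12507 and 11135 counts in control and knockout (log2 ratio -0.20, interval of the ratio 0.749 to 1.02). Sdhb, the iron-sulphur subunit, had 12581 and 12442 counts (-0.04, 0.833 to 1.13). The membrane anchors Sdhc and Sdhd had 7269 and 6526 counts (-0.18) and 12497 and 12991 counts (0.03, a sign that turned with upper-quartile scaling or library totals alone). All 4 intervals include 1. The median was -0.11, and 0.02 with the GC and length trend removed.

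Complex III had a median log2 ratio of -0.07 over 8 nuclear subunits, and 0.03 with the GC and length trend removed. Uqcrc2, a core protein on the matrix side (chromosome 7, 120635176 to 120659524, plus strand), had 6558 counts in the control and 8944 in the knockout library, a log2 ratio of 0.42 (ratio 1.34, interval 1.10 to 1.63). Its partner Uqcrc1 had 10350 and 9203 counts, a log2 ratio of -0.20 (0.736 to 1.03). The partner proteins, which are paired in the complex, thus had ratios on opposite sides of 1. Uqcrfs1, the Rieske iron-sulphur protein, had 6642 and 6603 counts and a log2 ratio of -0.04. Uqcrh, the hinge protein beside cytochrome c1, had 11833 and 9837 counts and a log2 ratio of -0.30 (0.694 to 0.956). Its interval was the only 1 of the 8 nuclear subunits wholly below 1, beside 15.2% of all genes with at least 1000 counts. Of the rest, Uqcr10, Uqcr11 and Uqcrb had ratios of -0.24, -0.11 and -0.02 on the log2 scale and Uqcrq had 0.10. Cycs, cytochrome c itself, had 3851 and 3237 counts and a log2 ratio of -0.28 (0.622 to 1.10).

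Complex IV had a median log2 ratio of -0.26 over 17 nuclear subunits, and of -0.25 over the 12 that are not tissue-restricted isoforms. With the GC and length trend removed the median of the 17 was -0.11. Ndufa4, once assigned to complex I and now to complex IV (chromosome 6, 11900292 to 11907497, minus strand), had 5491 and 3023 counts in control and knockout and was 1.85-fold lower (interval 1.43 to 2.41). Cox7b had 11723 and 8193 counts and was 1.46-fold lower (1.23 to 1.72). Cox7a2 had 9117 and 7009 counts and was 1.33-fold lower (1.10 to 1.597). Cox5a, Cox6b1 and Cox8a also had intervals wholly below 1, at log2 ratios of -0.32, -0.26 and -0.24. The value of Cox8a was -0.04 with the GC and length trend removed. Cox7c, Cox6a1 and Cox6c had log2 ratios of -0.38, -0.23 and -0.20 with intervals that include 1.

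The 3 common subunits of complex IV above 0 were Cox5b, Cox7a2l and Cox4i1. Cox5b had 6275 and 7530 counts (log2 ratio 0.23, interval 0.955 to 1.45). Cox7a2l, which joins complex IV to complex III, had 11283 and 12898 counts (0.16, 0.960 to 1.31). Cox4i1, with the highest level per kilobase among the nuclear subunits, was at 482 CPM per kilobase in the control and 517 in the knockout library (23907 and 26132 counts, log2 ratio 0.10, interval 0.963 to 1.19). The 3 intervals include 1. The Cox4i1 value was 0.32 with the GC and length trend removed, which is above its counting interval.

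Tissue-restricted isoforms of complex IV were read at low levels or not at all. Cox4i2, the isoform of lung and of oxygen-sensing and contractile cells, had 607 counts in the control and 104 in the knockout library, 5.93-fold lower (chromosome 2, 152754173 to 152765037, plus strand; interval 2.01 to 27.3). The common isoform Cox4i1 did not go with it. Cox6b2, the testis isoform, had 169 and 47 counts, and Ndufa4l2, a hypoxia-induced relative of Ndufa4, had 111 and 42. Cox7a1, the muscle isoform, had 91 and 110 counts, and Cox6a2, also of muscle, had 0 and 88. The intervals of Cox6b2, Ndufa4l2, Cox7a1 and Cox6a2 all include 1, and the values amount to a few fragments. The testis isoforms Cox7b2 and Cox8c and the muscle and brown fat isoform Cox8b were at 0 in both libraries.

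Markers of pericytes and smooth muscle, cells in which Cox4i2 is known to be made, were low, and their sum was lower in the knockout library. Of the 8 genes in that list, Rgs5 had 299 and 13 counts, Notch3 had 123 and 0, Abcc9 had 110 and 0, and Acta2 had 693 and 306, while Kcnj8 was at 0 in both. Myh11 had 47 and 8. Des and Cspg4 went the other way, with 37 and 257 and with 20 and 86 counts. Only the intervals of Rgs5 and Acta2 lay wholly below 1. The control counts of Notch3, Abcc9 and Myh11 lie under the floor of 141 reads, and their intervals include 1, as do those of Des and Cspg4. The summed level of the list was 20.2 CPM in the control and 10.002 CPM in the knockout library. The part of these cells in the Cox4i2 value was not tested. The muscle list, beside which Cox6a2 and Cox7a1 can be read, summed to 5.62 and 9.45 CPM, with Mb and Myh7 at 0 in both libraries.

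**Figure D4:**
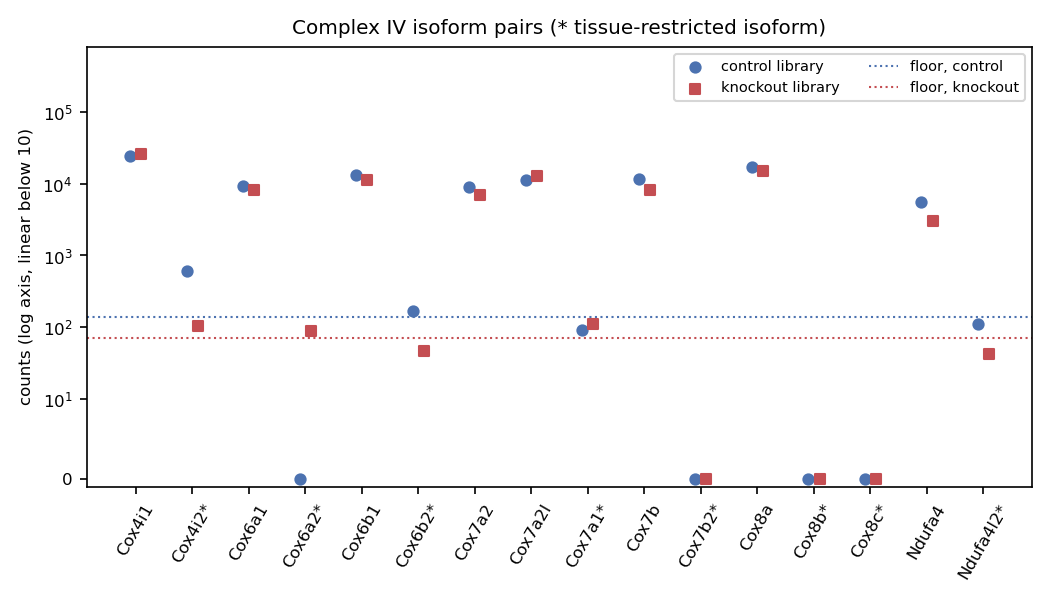
Counts (vertical axis, log scale, linear below 10) of complex IV genes with tissue-restricted isoforms (asterisks) beside their common partners, in the control (blue circles) and knockout (red squares) libraries, with dotted lines at the 3-fragment floor of each library (141 and 72 reads). The common forms lie above 1000 counts in both libraries, Cox4i2 (607 counts) and Cox6b2 (169) are the isoforms above the floor in the control library, and Cox7b2, Cox8b and Cox8c are at 0.

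Complex V had the lowest median, -0.34 over 16 nuclear subunits (over genes, -0.43 to -0.06), with 14 below 0 and 10 intervals wholly below 1. The shares among all genes with at least 1000 counts were 46.7% below 0 and 15.2% with an interval wholly below 1. With the GC and length trend removed the median was -0.17. The genes of the stalk and the membrane part had a median of -0.37 over 8 genes, and those of the F1 head and the rotating ring -0.12 over 8 genes. The head and ring genes have longer transcripts, with a median of 1049 bases beside 692 bases.

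Of the 8 head and ring genes, 3 had intervals wholly below 1, beside 15.2% of all genes with at least 1000 counts. Atp5a1 (F1 alpha) had 38520 and 38730 counts in control and knockout (log2 ratio -0.02, interval 0.905 to 1.07). Atp5b (F1 beta, which holds the catalytic sites) had 50233 and 45913 counts (-0.16, 0.831 to 0.966). Atp5c1 (F1 gamma, the rotating shaft) had 17237 and 16522 counts (-0.09, 0.825 to 1.07). The intervals of Atp5a1 and Atp5c1 include 1, and that of Atp5b lies wholly below 1. The small subunits of the central stalk were lower: Atp5e (F1 epsilon) had 11515 and 8484 counts (-0.47, 0.613 to 0.855) and Atp5d (F1 delta) had 10287 and 7850 (-0.42, 0.628 to 0.891). The 3 genes that encode the same ring protein, Atp5g1, Atp5g2 and Atp5g3, had log2 ratios of -0.20, 0.04 and -0.06. Of the words of Atp5g2, 87.4% occur in other genes' transcripts, and its sign turned with upper-quartile scaling or library totals alone.

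Among the membrane and peripheral stalk genes Atp5k (subunit e, chromosome 5, 108433244 to 108434448, minus strand) was lowest, with 5053 and 3396 counts in control and knockout, 1.52-fold lower (interval 1.17 to 1.97). Atp5h (stalk subunit d) had 12980 and 9811 counts, 1.35-fold lower (1.15 to 1.57). Atp5mpl, a small membrane proteolipid, had 6803 and 5167 counts, 1.34-fold lower (1.08 to 1.67). Atp5o, the protein that ties the stalk to the head, Atp5f1 (stalk subunit b), Atp5j (stalk factor 6) and Atp5j2 (subunit f) had log2 ratios from -0.39 to -0.34, with intervals wholly below 1. The single gene of this group above 0 was Atp5l (subunit g), with 9435 and 10196 counts and a log2 ratio of 0.08, and 68.5% of its words occur in other genes' transcripts. Atpif1, the inhibitor of the ATP synthase, is outside the symbol rule and had 7116 and 5079 counts, a log2 ratio of -0.52 (0.568 to 0.872).

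The 18 assembly factors and regulators had a median log2 ratio of -0.33, and every interval included 1. Ndufaf6, an assembly factor of complex I, had 513 and 213 counts in control and knockout, 2.45-fold lower with an interval of 0.920 to 6.67 that includes no difference. The 8 complex I factors had a median of -0.46 (over genes, -1.30 to 0.81), and the 9 complex IV factors one of 0.31 (-0.37 to 0.61). Of the 9 complex IV factors 5 were above 0 and 4 below. Their summed level was 122 CPM in the control and 118 CPM in the knockout library, which is not higher. Among factors with at least 1000 counts the lowest were Ndufaf5 (717 and 449 counts, -0.70), Ndufaf3 (953 and 635, -0.61) and Cox19 (1044 and 715, -0.57), and the highest were Ndufaf7 (416 and 745, 0.81) and Cox20 (583 and 911, 0.61). These genes had few counts each, and single differences of this size were not detectable at this depth.

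Transcript length went with the ratio. In all nuclear genes with at least 1000 counts that are not members, the median log2 ratio was -0.16 for transcripts under 600 bases, -0.16 from 600 to under 1000, -0.07 from 1000 to under 2000, 0.05 from 2000 to under 4000, and 0.22 at 4000 bases or more. Most subunit transcripts are short: 26 of 77 are under 600 bases and 24 from 600 to under 1000. In these 2 classes the subunits had medians of -0.28 and -0.24, with 22 of 26 and 19 of 24 below 0, beside 61.8% and 66.7% of the other genes. From 1000 to under 2000 bases the 19 subunits had a median of -0.07, the same as the other genes. From 2000 to under 4000 bases the 8 subunits had a median of -0.20 beside 0.05. Over the 77 subunits, log2 transcript length and log2 ratio had a Pearson correlation of 0.25 (Spearman 0.30), and over the 8953 other genes 0.18 (0.24). Genes share the libraries and are not replicates. With a smooth trend of GC content and length removed, the median of the nuclear subunits was -0.065 in place of -0.21. The part of length in the differences was not tested further.

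**Figure D5:**
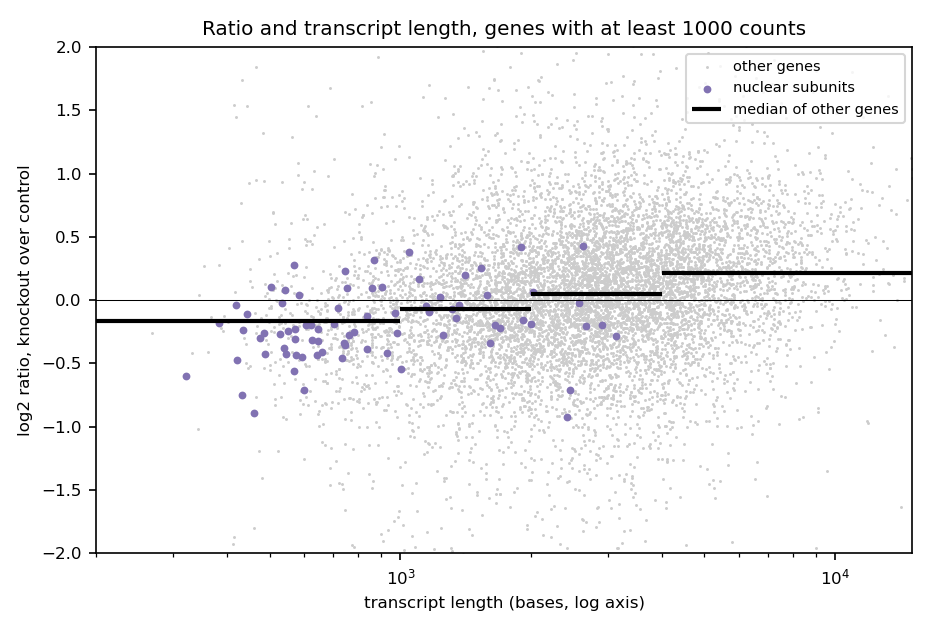
Log2 ratio (knockout over control, vertical axis, cropped at 2 and -2) against transcript length (bases, log axis) for nuclear subunits (purple) and all other nuclear genes (grey) with at least 1000 counts, with black bars for the median of the other genes in each length class. The bars climb from -0.16 below 1000 bases to 0.22 at 4000 bases or more, and most purple points lie under 1000 bases and below 0.

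The nuclear subunits share little sequence with other genes. Of the 85 nuclear subunits, 67 share under 10% of their 50-base words with other genes, and the 64 of these with enough counts had a median log2 ratio of -0.23, with 49 below 0. The subunits with 50% or more are Atp5g2 and Atp5l, both slightly above 0.

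Promoters of nuclear subunits were searched for 3 words on both strands: GCATGCGC, a binding word of NRF1, CCGGAAGT, a word of ETS factors such as GABP, and AAGATGGC, a word of YY1. These factors are known regulators of respiratory chain genes. Promoter sequence (250 bases before to 50 after the start, RefSeq, GRCm38.p6) was matched for 84 of the 103 nuclear members, 69 of them subunits or cytochrome c. Of the 69, 15.9% held the NRF1 word, 7.25% the ETS word and 14.5% the YY1 word, beside 3.05%, 4.31% and 3.19% of the promoters of 27025 genes. Among the subunits with enough counts, the median log2 ratio was -0.18 over the 11 with the NRF1 word and -0.26 over the 56 without. For the ETS word the medians were -0.24 (5 with) and -0.23 (62 without), and for the YY1 word -0.30 (10 with) and -0.23 (57 without). The NRF1 and YY1 words were thus more frequent in these promoters than in promoters at large, and the share with the ETS word was closer to that of all promoters. These shares were not tested. A word match is not a site shown to be bound.

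The promoters of Atp5k and Ndufa3, the lowest membrane gene of complex V and one of the lowest of complex I, are shown with those words in capitals, read 5′ to 3′ on the gene's strand. Low genes did not all hold a word: Ndufb2, Ndufs5 and Ndufab1, the other lowest accessory genes of complex I, and Ndufa4 held none. In Atp5k (chr5:108434350-108434649, minus strand) the capitals are 2 overlapping matches of the NRF1 word, 1 on each strand, and in Ndufa3 (chr7:3617123-3617422, plus strand) they are the YY1 word, which lies within the 50 bases after the start.
Atp5k: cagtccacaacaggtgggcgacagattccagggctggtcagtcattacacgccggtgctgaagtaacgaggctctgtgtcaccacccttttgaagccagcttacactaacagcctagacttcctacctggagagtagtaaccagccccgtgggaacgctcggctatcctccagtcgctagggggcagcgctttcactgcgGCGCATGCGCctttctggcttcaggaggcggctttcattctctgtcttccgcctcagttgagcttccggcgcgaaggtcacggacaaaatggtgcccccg
Ndufa3: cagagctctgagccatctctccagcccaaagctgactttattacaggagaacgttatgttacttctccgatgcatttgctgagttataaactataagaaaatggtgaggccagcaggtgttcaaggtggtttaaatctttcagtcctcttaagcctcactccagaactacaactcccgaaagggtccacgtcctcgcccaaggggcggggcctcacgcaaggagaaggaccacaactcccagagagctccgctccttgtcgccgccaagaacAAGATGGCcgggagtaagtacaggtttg

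Other mitochondrial gene lists held smaller differences or mixed ones. The mitochondrial ribosome, 77 genes with enough counts, had a median log2 ratio of -0.14, with 50 below 0, 9 intervals wholly below 1, a share near the 11.2% of all genes, and none above. Mrpl55 had the lowest value among them, with 1530 and 606 counts in control and knockout, 2.57-fold lower (interval of the ratio 0.216 to 0.657). The cytosolic ribosome, 76 genes with short transcripts of 773 bases in the median, had a median of -0.09, with 54 below 0. Of its intervals 27 lay wholly below 1 and 5 above, beside 11.2% and 12.5% of all genes. The medians of both ribosome lists were below 0 and nearer to 0 than that of the respiratory chain genes. The share of genes below 0 was 71.1% in the cytosolic ribosome and 64.9% in the mitochondrial ribosome, beside 73.2% of the respiratory chain genes. A slight lowering of most genes was thus not particular to the respiratory chain.

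The citric acid cycle, 13 genes, had a median of -0.15 with 7 below 0. Fh1, fumarase, had 7727 counts in the control and 2711 in the knockout library, 2.91-fold lower (interval of the ratio 0.269 to 0.441), a larger difference than any chain subunit with at least 1000 counts had. Mdh2 (malate dehydrogenase, 14855 and 10950 counts, -0.47) and Cs (citrate synthase, 13429 and 10552 counts, -0.38) also had intervals wholly below 1. Dld, a subunit shared by several dehydrogenases, had 4385 and 5873 counts, a log2 ratio of 0.39 and an interval wholly above 1. The cycle thus held genes in both directions.

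Genes of mitochondrial transcription, replication and biogenesis had a median of 0.00 over 17 genes, 9 above 0 and 8 below. Tfam, which packages mitochondrial DNA and takes part in its transcription, had 1142 and 1168 counts (log2 ratio 0.00). Nrf1 and Gabpa, factors of the promoter words above, had 1370 and 1637 counts (0.23) and 2660 and 3034 counts (0.16), with intervals that include 1. Ppargc1b, a coactivator of mitochondrial genes, had 538 and 1052 counts (0.94, ratio interval 1.02 to 4.30). Polg2, the accessory subunit of the mitochondrial DNA polymerase, had 534 and 151 counts (-1.85, 0.0829 to 0.805), and Twnk, the helicase of the same replication machine, had 223 and 629 (1.46, 0.983 to 8.68). Polg2 and Twnk, with under 1000 counts, were chosen after their values were seen and rest on few fragments.

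Of 29 assembly factors outside the symbol rule the median was -0.14. Coa3 and Pet100, both of complex IV assembly, had 2957 and 1616 counts (log2 ratio -0.90) and 2419 and 1435 counts (-0.78), and Uqcc2, of complex III, had 2713 and 1929 (-0.52), all with intervals wholly below 1. Sdhaf1, an assembly factor of complex II, had 911 and 1588 counts (0.77), the one interval of the list wholly above 1. Of the 29 intervals, 3 thus lay wholly below 1, a share near the 11.2% of all genes. The 1 above stands beside 12.5% of all genes. Cyc1, the cytochrome c1 of complex III, had 4743 and 4559 counts (-0.09), and Usmg5, a small membrane subunit of complex V, had 6970 and 5363 (-0.41, 0.610 to 0.935).

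In the authors' deposited table of fold changes 113 members had a value, 83 of them negative, and 0 had an adjusted p-value under 0.05. The lowest adjusted p-value of any member in the authors' deposited table was 0.999872, and the lowest of any gene was 0.331. With 1 library per group such values do not rest on the spread between animals.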

How the data were processed

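Per the labels' protocols, RNA of CD11b+ cells was made into libraries with a TruSeq stranded mRNA kit. The submitters' processing notes name cutadapt, HISAT2, featureCounts and GRCm38. Versions, options, strand handling and the treatment of multi-mapping reads are not stated in the sources used here. The authors deposited raw counts per Ensembl gene. They also deposited a comparison table with normalised values (a signal scaled by a constant per library, from the values), a log2 fold change with its standard error, a score that is their quotient, and p-values. No molecular identifiers are named, so duplicates are counted.

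Of 49585 identifiers, 49326 matched a symbol in GENCODE M21. The authors' counts were scaled with TMM factors (1.02 control, 0.977 knockout; edgeR 4.0.16, R 4.3.3), and log2 ratios were taken with 0.5 counts added to each library, where both libraries together held 50 counts or more. CPM use the scaled library sizes. Intervals are exact Clopper-Pearson intervals at 95% on counts divided by 47 and 24 reads per fragment, which are the median reads of 867 control-only and 2114 knockout-only genes with more than 4 reads. Intervals of medians come from order statistics over genes, which are not replicates. The code was tested on simulated data. With 1 library per group no test was run. Alternatives were other scalings (DESeq2 1.42.0 size factors, upper quartile, totals, nuclear genes alone), a prior of 5 counts, other count minimums, removal of a smooth GC and length trend (mgcv 1.9.3), and other gene sets. Intervals on reads and the set without shared sequence were chosen after seeing the data.

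Named genes follow a rule: all mitochondrial genes, complex II, cytochrome c, isoforms and their partners, complex I core, the complex III and F1 subunits named above, up to 4 highest and lowest per complex with at least 1000 counts, and all at least 2-fold apart. Further members are given for completeness, and a gene that the rule takes is not reported here. Members and lists were chosen with earlier results of these data known.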

Additional observations from a re-analysis of the deposited data

How the results depend on the processing

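Each group holds 1 pooled library, so no value here can be weighed against the spread between animals, and intervals cover counting error only. No paired analysis was possible because each group has 1 library. Removing the trend with GC content and transcript length gave a median log2 ratio of -0.065 for the nuclear subunits, -0.041 for the nuclear subunits of complex I and -0.091 for its accessory subunits, and 8 intervals lay above 1 and 17 below 1. It also turned the medians of complexes II and III (0.02 and 0.03) and the sign of 12 of 112 members. With library totals alone the nuclear median was -0.28. Signs turned for 4 members with totals alone, for 3 with upper-quartile factors and for 0 with size factors, nuclear TMM or a prior of 5 counts. The median of all genes moved by less than 0.1 under every scaling, from -0.01 to between -0.08 and 0.00. At a minimum of 1000 counts 0 members were 2-fold higher and 0 were 2-fold lower. Intervals on reads as deposited, chosen after the data were seen, put 25 members above 1 and 78 below. Among counts outside the 100 most counted nuclear genes, the mitochondrial genes took 2.37% and 2.30%. The medians of complexes IV and V, of the assembly factors and of the mitochondrial genes stayed below 0 under all these settings, and that of the complex I core above 0.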

Other observations

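Other RNAs of the mitochondrial genome were also counted, although the library kit selects messenger RNA. The ribosomal RNAs mt-Rnr1 and mt-Rnr2 had 30437 and 28025 counts and 44318 and 39510 counts in control and knockout. Their summed share was 0.117% of all control counts and 0.0985% of all knockout counts. Of 22 mitochondrial tRNA genes, 11 had counts, with totals of 1119 and 507. Of these, 6 were counted in the control and at 0 in the knockout library, and 0 had the reverse. Over all genes, 867 with more than 4 reads were seen in the control library only and 2114 in the knockout library only. The most counted of the 6 was mt-Tm, which encodes the methionine tRNA, with 186 and 0 counts, followed by mt-Tp, the proline tRNA, with 123 and 0. A count of 0 in the knockout library allows up to 72 reads. The floor of the control library is 141 reads, and of the 6 genes only mt-Tm lay above it. The control counts of the others amount to a few fragments at most. mt-Tw, mt-Tt and mt-Tl1 were counted in both libraries, with 244 and 121, 252 and 173, and 149 and 186 counts.

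Uncoupling proteins let protons back across the inner membrane or carry metabolites. Ucp2, the form known in immune cells, had 97252 counts in the control and 78970 in the knockout library, a log2 ratio of -0.33 (interval of the ratio 0.753 to 0.841). Ucp1, of brown fat, had 0 and 46 counts and Ucp3, of muscle, 0 and 55, both under the floor. Beside these stand the adipocyte markers, of which Adipoq had 0 and 454 counts, Cfd 253 and 3027, and Lep 0 in both. The summed brown adipocyte list was at 15.8 and 4.48 CPM, carried by Elovl3 (477 and 97 counts), Cidea (378 and 64) and Dio2 (180 and 79). Ucp1 and Ppargc1a (0 and 14 counts), also in that list, went the other way on counts under the floor. The part of fat cells in any respiratory chain value was not tested.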
